A study of Mus musculus with 72 samples.

Results

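The contractile apparatus of smooth muscle was followed in 72 RNA-seq libraries of adult mouse heart through 7 genes chosen by name: Myh11, Acta2, Tagln, Cnn1, Smtn, Lmod1 and Myocd. All 7 were found by gene identifier among the 24237 gene rows of the count table, and no library had 0 reads for any of them. The libraries came from right atrium, left atrium and ventricles of C57BL/6J mice in 4 groups, with 3 male and 3 female libraries for each group and compartment. The naive group was Ahr+/+ offspring of dams given corn oil, and the Ahr-null group was Ahr-/- offspring of Ahr-/- parents, whose dams were left untreated according to the methods, although the treatment entry of the labels names TCDD for every library. The low-dose and high-dose groups were Ahr+/+ offspring of dams gavaged in gestation with 0.1 or 1 μg/kg TCDD (dioxin), a ligand of the aryl hydrocarbon receptor AHR. Dams were gavaged on 3 days of gestation, for which the labels and the methods give different days. The labels put the age at collection at 9 months and the methods at about 10 months. The study asked whether disturbing AHR signaling before birth left a mark on the adult heart. The deletion is constitutive, so the Ahr-null mice lacked the receptor in every cell and at every age, whereas exposure was limited to gestation.

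In the heart, smooth muscle lies mainly in the media of coronary arteries, in the walls of veins entering the atria and in the roots of the great vessels. Its contractile proteins form a common program whose promoters carry CArG boxes, the binding site of serum response factor (SRF), and myocardin is the co-activator that binds SRF and turns the program on. Myocardin is also made by cardiomyocytes, whereas smooth muscle myosin heavy chain (Myh11) is the most restricted marker of the mature smooth muscle cell. In such bulk tissue, fewer smooth muscle cells and less RNA per smooth muscle cell cannot be told apart.

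The 7 genes have different roles. Myh11 (gene 17880, chromosome 16, 14194527 to 14292188, GRCm38) encodes the myosin motor and Acta2 (gene 11475, chromosome 19, 34240336 to 34255585) the actin it pulls on. Tagln (gene 21345, chromosome 9, 45929628 to 45936058) encodes transgelin, or SM22, and Cnn1 (gene 12797, chromosome 9, 22099221 to 22109221) calponin, both of which bind actin filaments. Smtn (gene 29856, chromosome 11, 3517522 to 3539292) encodes smoothelin, an actin-binding protein of contractile smooth muscle, and Lmod1 (gene 93689, chromosome 1, 135324813 to 135368065) encodes leiomodin, which nucleates actin filaments. Myocd (gene 214384, chromosome 11, 65173608 to 65269989) encodes myocardin. Reads were counted on coding regions, and of all 50-base windows of the coding sequence only 26 of 5891 in Myh11, 7 of 1085 in Acta2 and 1 of 2903 in Myocd also occurred in a transcript of another gene. No such window was found in Tagln, Cnn1, Smtn or Lmod1.

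RefSeq promoters (GRCm38.p6, 250 bases before to 50 after a transcript start) were at hand for 4 of the 7 genes, Acta2, Cnn1, Smtn and Lmod1, and were searched for the CArG box on both strands, allowing 1 letter to differ. The windows are shown because this element is what the genes' promoters are known to share. Each line gives 30 bases, 5′ to 3′ along the gene, with the element in capitals; distances count the element's first base from the transcript start of that promoter table, which for Acta2, Cnn1, Srf and Myl9 lies inside the full extent of the gene rather than at its outer end. Acta2 held it at -84 and -34, on the minus strand of chromosome 19 (34255438 to 34255467 and 34255388 to 34255417), and Lmod1 at -189 and -164, on the plus strand of chromosome 1 (135324614 to 135324643 and 135324639 to 135324668). The promoter of Srf itself is given for comparison, with elements at -82 and -62 (chromosome 17, minus strand, 46556225 to 46556254 and 46556205 to 46556234) that match every letter, as does that of Myl9, the regulatory myosin light chain, at -161 (chromosome 2, plus strand, 156775293 to 156775322).
Acta2 at -84: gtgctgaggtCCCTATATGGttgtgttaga
Acta2 at -34: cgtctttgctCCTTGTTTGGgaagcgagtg
Lmod1 at -189: gcccccttgtCTTTAAAAGGctaaactgct
Lmod1 at -164: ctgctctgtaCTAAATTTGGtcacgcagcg
Srf at -82: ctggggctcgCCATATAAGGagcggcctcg
Srf at -62: agcggcctcgCCATAAAAGGaaacattgta
Myl9 at -161: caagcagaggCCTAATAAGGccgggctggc
No element within 1 letter was found in the windows of Cnn1 and Smtn, so 2 of the 4 promoters held one. Of the 21699 promoters of genes in the count table, 1.51% held an exact element and 19.8% one within 1 letter, which makes the looser match a common one. A match describes letters only.

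Several libraries went against their labels, and values without them are given below for several of the comparisons. Myl4, the atrial myosin light chain, was below 100 CPM (read counts scaled by the library total) in 8 libraries labelled as atrium and above 500 CPM in 5 labelled as ventricles, 13 in all. Of the 4 ventricular libraries numbered 53, 59, 65 and 71 and labelled male, 1 in each group, all carried the female transcript Xist at 177 to 329 CPM. The 4 right atrial libraries numbered 50, 56, 62 and 68 and labelled female, again 1 in each group, had Xist at 0.105 to 0.830 CPM and Y-linked transcripts instead. These 8 libraries, and those discordant in Myl4, all keep their labels here. Ahr ran from 8.59 to 30.8 CPM in naive libraries and from 2.00 to 9.23 CPM in Ahr-null ones, so the ranges overlapped slightly. The labels call the material cardiomyocytes, but the endothelial list (8 genes) summed to 660 to 1402 CPM and the fibroblast list (5 genes) to 611 to 3081 CPM, beside 8146 to 22120 CPM for Tnnt2, Tnni3 and Ryr2. Library totals ran from 11873417 to 28789382 counts, where 3 counts correspond to 0.104 to 0.253 CPM. Comparisons were fitted in edgeR by quasi-likelihood, p-values were adjusted (Benjamini-Hochberg) across every gene tested, and a gene was called at an adjusted p under 0.05; with 3 libraries a group, and the sources stating 3 mice per sex and condition, these measure the spread between animals. The tables do not tell which libraries of different compartments share a heart.

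Acta2 and Smtn were the most abundant of the 7 transcripts per library. The median over 72 libraries was 201 CPM for Acta2, 163 CPM for Smtn, 51.9 CPM for Myh11, 47.0 CPM for Myocd, 44.1 CPM for Tagln, 4.91 CPM for Lmod1 and 4.66 CPM for Cnn1. Per kilobase of coding sequence the order changed, with median levels of 178 CPM per kb for Acta2, 73.1 for Tagln, 57.3 for Smtn, 15.9 for Myocd, 8.74 for Myh11, 5.23 for Cnn1 and 2.75 for Lmod1. Neighbours in that order overlapped in their ranges over libraries. Smtn and Myocd varied least, with highest over lowest library ratios of 5.40 and 6.61, whereas the ratio was 54.5 for Tagln, 62.4 for Acta2, 68.4 for Myh11, 99.7 for Lmod1 and 323 for Cnn1. The 7 genes thus fell into a pair with a narrow range of levels and 5 genes with a wide one.

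**Figure D1:**
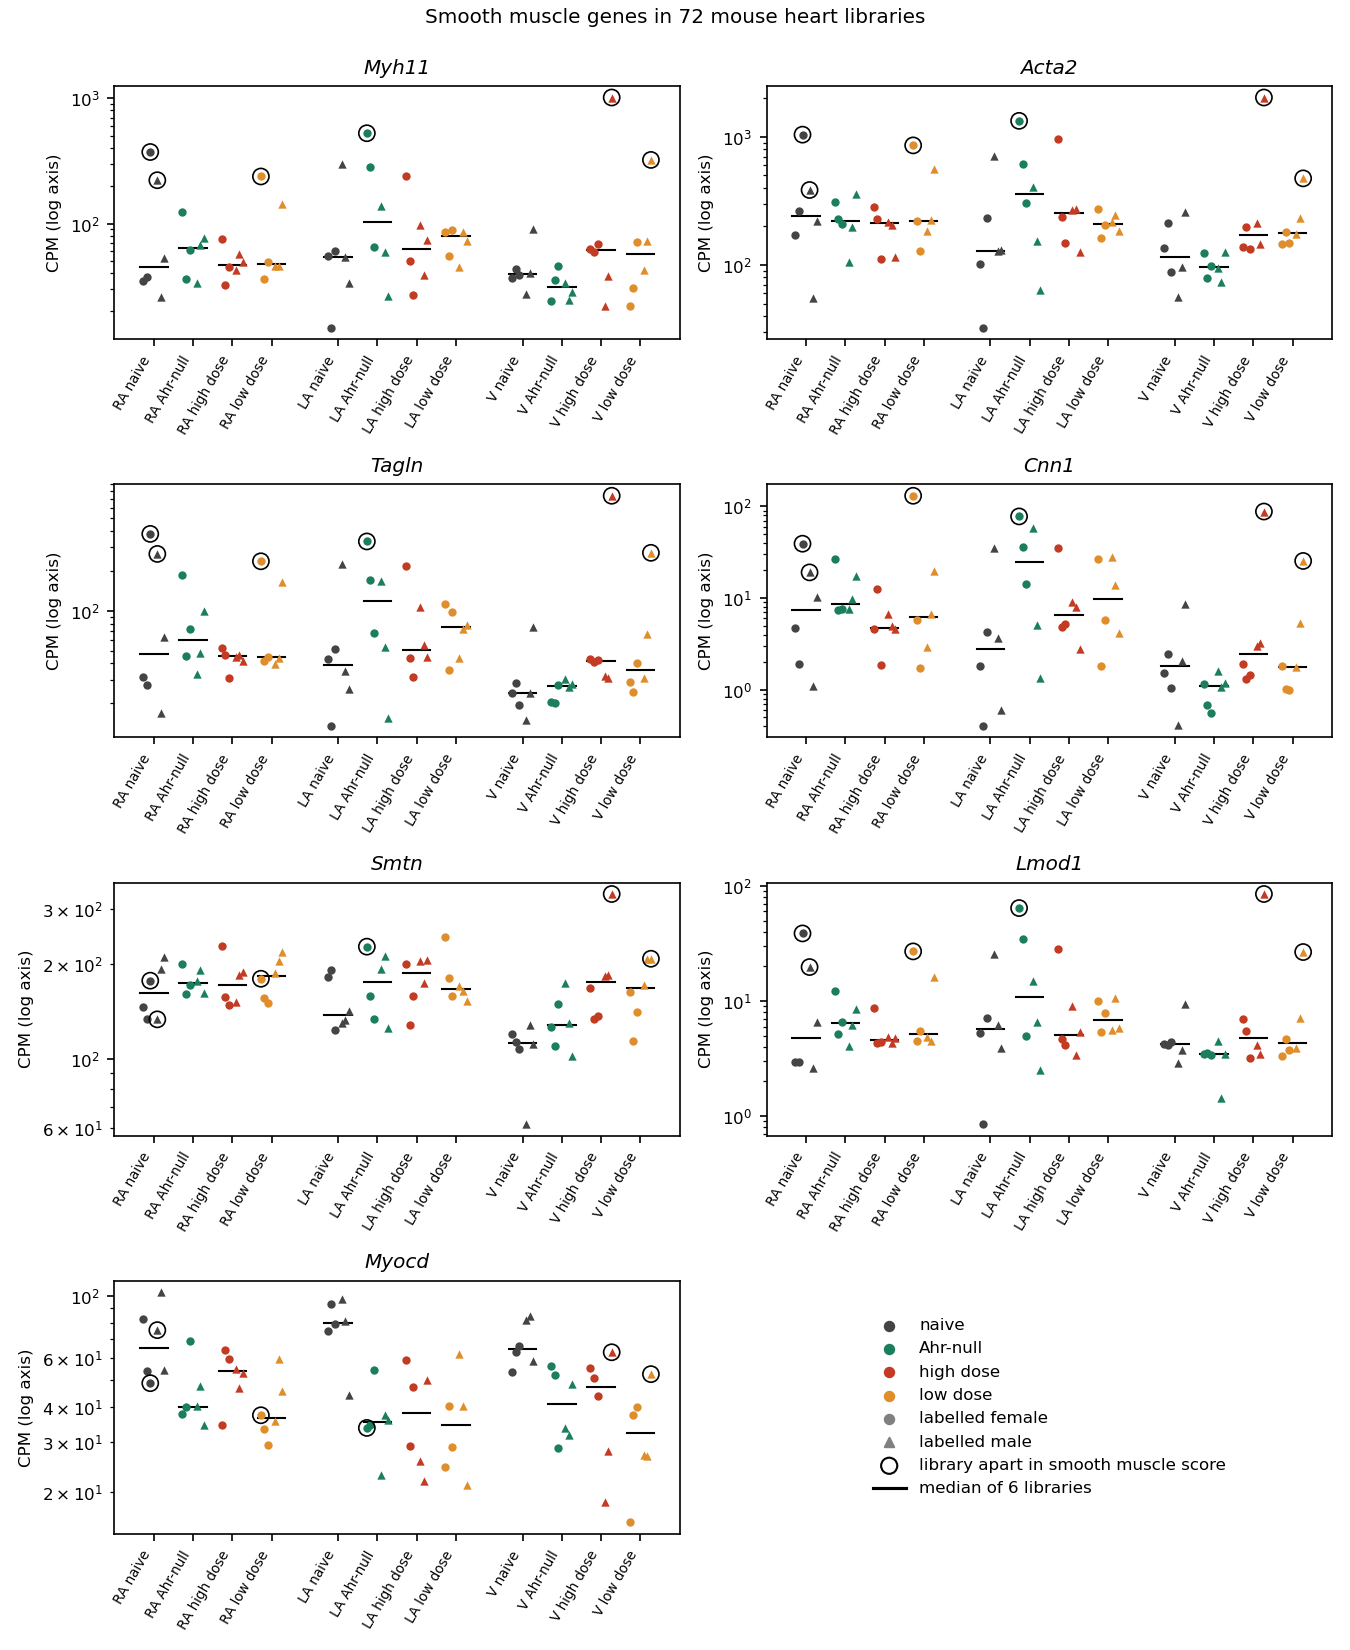
Level of each of the 7 genes in CPM (log axis) in every library, by compartment (RA, right atrium; LA, left atrium; V, ventricles) and group. Points are libraries (circles labelled female, triangles male), bars are medians of 6 libraries, and rings mark the 6 libraries that stand apart in the smooth muscle score; the highest ringed point of Myh11, at 1013 CPM, is library 65.

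A smooth muscle score was made for each library as the mean over the 7 genes of log2(CPM + 0.5) minus the gene's median in that compartment, and a library was said to stand apart beyond 3 scaled median absolute deviations (MADs) of its compartment's scores. By this measure 6 of 72 libraries stood apart, all on the high side. They were library 65, labelled high-dose male ventricles, at 10.3 MADs; library 71, low-dose male ventricles, at 6.30; library 50, naive female right atrium, at 4.59; library 15, low-dose female right atrium, at 4.34; library 23, Ahr-null female left atrium, at 3.88; and library 1, naive male right atrium, at 3.09. They carried labels of all 3 compartments and all 4 groups, and libraries 50, 65 and 71 are among those discordant in sex, libraries 23, 65 and 71 among those discordant in Myl4. Every library was scored against the compartment of its label, which for libraries 23, 65 and 71 their Myl4 went against. Scores against another compartment were not computed, so these MADs hold for the labelled compartment only. With library sizes scaled by TMM (the trimmed mean of M-values) instead of totals, an alternative added after the data were seen, 4 stood apart, libraries 15, 50, 65 and 71. With Myocd left out of the score, library 1 fell to 2.95 MADs and the other 5 stayed beyond the limit. The endothelial list, scored in the same way, was at -0.41 to 0.17 (log2) in these 6 libraries.

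Library 65 held 1013 CPM Myh11, 2029 CPM Acta2, 737 CPM Tagln, 87.9 CPM Cnn1 and 85.0 CPM Lmod1. The next highest of the 6 high-dose ventricular libraries held 68.2 CPM Myh11, 213 CPM Acta2, 43.0 CPM Tagln, 3.22 CPM Cnn1 and 6.94 CPM Lmod1, so that 1 library decided the upper end of that group for these 5 genes. Smtn reached 335 CPM there against 185 CPM, and Myocd 62.8 CPM against 55.3 CPM, much smaller gaps. Library 65 also had the highest elastin transcript of all libraries (Eln, 201 CPM, where the ventricular median was 11.4 CPM), 829 CPM summed over 4 adipocyte genes (ventricular median 1.82 CPM) and 176 CPM over 3 mesothelial genes (median 17.5 CPM), with Myl4 at 1469 CPM. The sum over the pericyte genes did not follow, at 549 CPM against a ventricular median of 761 CPM. Abcc9, which cardiomyocytes also make, was the most abundant gene of that list, with a ventricular median of 481 CPM.

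Library 71 held 322 CPM Myh11, 475 CPM Acta2, 273 CPM Tagln, 25.4 CPM Cnn1 and 26.6 CPM Lmod1, against at most 72.8, 231, 67.0, 5.40 and 7.11 CPM in the other 5 low-dose ventricular libraries. Its Myl4 was 3533 CPM and its adipocyte sum 152 CPM. Library 50 held 372 CPM Myh11 and 1041 CPM Acta2 with an adipocyte sum of 745 CPM (right atrial median 12.4 CPM), among it 443 CPM Ucp1, the uncoupling protein of brown fat. Library 15 held 238 CPM Myh11 and the highest Cnn1 of all, 131 CPM, and with it a lung list (5 genes) at 2127 CPM, nearly all of it Scgb1a1 of airway club cells at 2061 CPM, where the right atrial median of the sum was 0.373 CPM. The adipocyte sum of library 15 was 1014 CPM. The alveolar marker Sftpc was at most 0.767 CPM in any library. Library 21 (Ahr-null male left atrium) came next in the lung list, at 751 CPM with 736 CPM Scgb1a1. Library 23 held 526 CPM Myh11, 1334 CPM Acta2 and 584 CPM of adipocyte genes with Myl4 at 48.7 CPM, and library 1 held 222 CPM Myh11 with an adipocyte sum of 6.96 CPM and a lung sum of 0.670 CPM. High adipocyte sums also occurred in libraries that did not stand apart. They were 1020 CPM in library 64 at -0.74 MADs, 739.6 CPM in library 7 at 2.32 and 717.5 CPM in library 26 at -0.34. What part fat, airway or vessel tissue had in these levels was not tested.

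A further 4 libraries lay just below the limit. Library 17 (naive male left atrium) scored 2.87 MADs with 300 CPM Myh11, library 27 (high-dose female left atrium) 2.89 MADs with 238 CPM, library 53 (naive male ventricles) 2.84 MADs with 91.2 CPM, and library 67 (low-dose male right atrium) 2.74 MADs with 143 CPM. No library passed the limit on the low side. The lowest score, -2.59 MADs, and the lowest Myh11, 14.8 CPM, were in library 20 (naive female left atrium), which also had the lowest Acta2 (32.5 CPM), Tagln (13.5 CPM), Cnn1 (0.404 CPM) and Lmod1 (0.853 CPM) of all 72 while holding 191 CPM Smtn and 93.4 CPM Myocd.

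**Figure D2:**
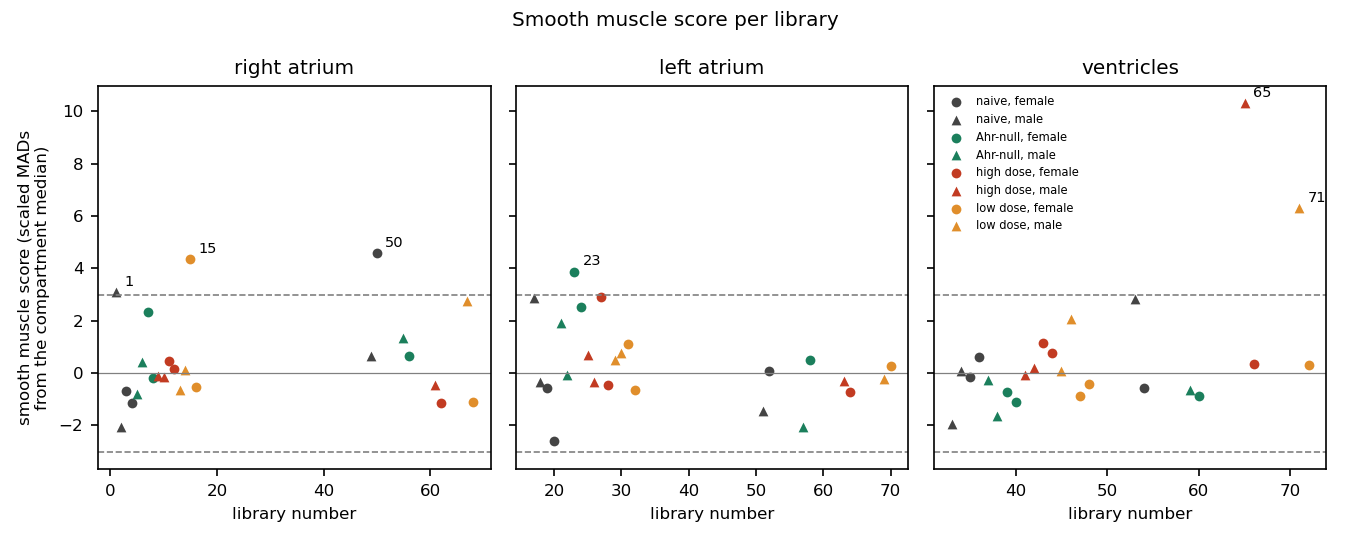
Smooth muscle score of each library in scaled MADs from the median of its labelled compartment, against library number, with the group in colour and the labelled sex by symbol. Dashed lines lie at 3 MADs to either side, and the 6 numbered libraries above the upper line reach from 3.09 to 10.3.

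With all libraries, Cnn1 had the largest difference between atria and ventricles among the members. Its median was 7.01 CPM in right atrium, 5.45 CPM in left atrium and 1.55 CPM in ventricles. Averaged over the 8 combinations of group and sex, it was 1.90 ± 0.48 higher (log2, SE, all 72 libraries) in left atrium (adjusted p = 0.00503) and 1.85 ± 0.47 higher in right atrium (adjusted p = 0.00281) than in ventricles. It was the only member called in either comparison, against 19.4% and 29.9% of all genes, and it stayed called with each library left out in turn, with a difference of 1.55 to 2.28 for the left atrium and 1.42 to 2.23 for the right. With the 18 naive libraries alone it was at 0.98 and 2.26 and was not called. The study dissected each heart into these compartments, whereas these fits treated the libraries as independent of each other.

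Tagln, Acta2, Lmod1 and Myh11 were also above the ventricles on average, by 0.63, 0.44, 0.48 and 0.35 in the left atrium and 0.57, 0.40, 0.24 and 0.09 in the right, but none was called. Medians were 49.4, 62.7 and 39.4 CPM for Myh11 in right atrium, left atrium and ventricles, 221, 223 and 143 CPM for Acta2, 46.1, 54.1 and 29.6 CPM for Tagln and 5.02, 6.01 and 4.01 CPM for Lmod1. What was called depended on the libraries named above. Without library 65 alone, 4 members were called for the left atrium (Cnn1, Tagln, Lmod1 and Acta2) and 3 for the right. The share of all genes called in that fit is not set beside these counts. Without the 8 libraries discordant in sex, an alternative added after the data were seen, the left atrial difference was 1.25 for Tagln, 1.05 for Lmod1, 1.00 for Myh11 and 0.86 for Acta2, and all 4 were called beside Cnn1 at 2.66. The right atrial difference was then 0.97 for Tagln and 0.75 for Acta2, both called, and 0.57 for Lmod1 and 0.51 for Myh11, not called. That exclusion also raised the number of all genes called for each atrium, as given in the last section. Without the 13 libraries discordant in Myl4, the right atrial difference was 2.80 for Cnn1, 1.31 for Tagln, 0.87 for Lmod1, 0.83 for Acta2 and 0.78 for Myh11, all called. In left atrium that setting called Cnn1 (2.78), Tagln (1.19), Lmod1 (0.82) and Acta2 (0.79), and not Myh11 (0.79, edgeR adjusted p = 0.0630). Here too, more of all genes were called for each atrium than with all libraries.

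Smtn and Myocd were not called between compartments and had the smallest differences for the left atrium. Smtn had medians of 177, 167 and 135 CPM in right atrium, left atrium and ventricles, and differed by 0.09 ± 0.09 for both atria; scaled to library totals only, it was at 0.23 and 0.28 and was called, but there the median of all genes moved to 0.18 and 0.23 as well, against 0.03 and 0.03. Myocd had medians of 48.2, 40.4 and 49.6 CPM and differed by -0.15 ± 0.13 and -0.02 ± 0.13. Between the right and left atrium no member was called (0.00599% of genes, 1 gene of 16688, was), and no member had an unadjusted p under 0.05; the differences lay between -0.27 for Myh11 and 0.13 for Myocd. DESeq2 called no member there either.

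**Figure D3:**
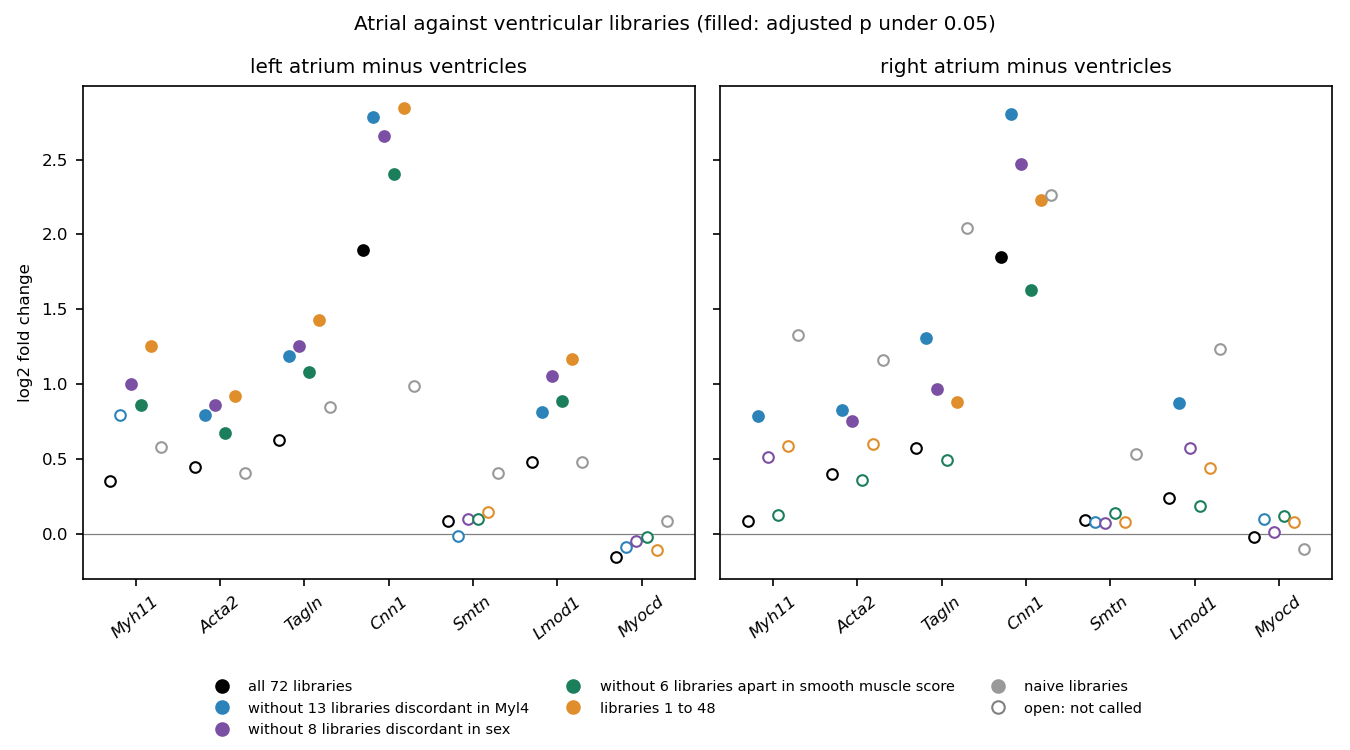
Difference of each of the 7 genes between left atrium and ventricles and between right atrium and ventricles (log2 fold change), with all libraries and with sets of libraries left out; filled points were called. Cnn1 lies highest in both panels, at 1.90 and 1.85 with all libraries, and Smtn and Myocd lie between -0.15 and 0.09 with all libraries.

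Among 15 partner genes of the contractile apparatus (light chains, kinase, phosphatase subunits and other filament proteins), 3 were higher and 1 lower in left atrium than in ventricles, and 3 higher and 2 lower in right atrium, beside 19.4% and 29.9% of all genes called in either direction. Myl9 was 1.39 ± 0.28 and 1.64 ± 0.28 higher in left and right atrium, and Tpm2, the tropomyosin of smooth muscle and slow fibres, 1.36 ± 0.25 and 1.40 ± 0.25. Ramp1, a receptor partner for the vasodilator CGRP, was 0.45 and 0.47 higher. Phospholamban (Pln), which is more abundant in cardiomyocytes than in smooth muscle, was lower by 0.69 and 0.78 (log2 -0.69 and -0.78), and the intermediate filament gene Des was lower by 0.40 (log2 -0.40) in right atrium. Of 14 regulators of the program, Prdm6, a repressor of contractile genes in smooth muscle, was 1.49 ± 0.45 and 2.04 ± 0.45 higher at medians of 3.22, 1.75 and 0.392 CPM in right atrium, left atrium and ventricles; Hey1, a Notch target, was 0.46 higher and Elk3, a partner of SRF, -0.17 in right atrium. Srf itself had medians of 69.2, 65.0 and 57.6 CPM and was not called.

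Genes listed for other cell types were also called between the compartments, where the share of all genes called was 19.4% and 29.9% as above. Of 7 pericyte genes, 2 were lower in left atrium and 3 in right atrium, and none higher; Abcc9, a potassium channel subunit of pericytes that cardiomyocytes also make, was at -0.91 and -1.07. Of 6 elastic wall genes, 2 were higher in left atrium and 4 in right, and none lower; Mfap4, a microfibril protein of elastic tissue, was 0.91 and 0.83 higher. All 3 mesothelial genes were higher in both atria, with Upk3b at 2.02 and 2.18, and 3 of 4 adipocyte genes were higher in left atrium. The part of these cells in the difference of Cnn1 was not tested. The median difference over the 7 smooth muscle genes was 0.44 and 0.24, beside 0.03 and 0.03 over all genes tested.

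In ventricles of females exposed to the high dose, 3 of the 7 genes were called, all higher: Tagln, Myh11 and Smtn. In the same comparison 23.7% of all genes tested were called, and 3 of 7 was not tested against that share. Tagln was 43.0, 40.8 and 42.7 CPM in the 3 high-dose female libraries and 23.9, 28.4 and 19.5 CPM in the 3 naive ones, a log2 fold change of 1.01 ± 0.16 (SE, n = 3 and 3, edgeR adjusted p = 0.00124). Myh11 was 63.3, 59.2 and 68.2 CPM against 37.2, 43.1 and 38.7 CPM (0.87 ± 0.16, edgeR adjusted p = 0.00250). Smtn was 168, 134 and 137 CPM against 120, 113 and 108 CPM (0.55 ± 0.13, edgeR adjusted p = 0.0104). In all 3 genes the high-dose females lay above the naive ones without overlap, while the 23.7% counts genes called, not genes so separated. None of these 6 libraries was discordant in sex or in Myl4, and none stood apart.

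The other members did not pass in this comparison. Acta2 was at 0.30 ± 0.25, Lmod1 at 0.42 ± 0.27, Cnn1 at 0.11 ± 0.46 and Myocd at -0.12 ± 0.15, and their values overlapped with the naive ones, for example 139, 197 and 134 CPM Acta2 against 135, 212 and 87.9 CPM. Scaled to library totals, where the median of all genes was -0.17, Smtn was no longer called, and with all 4 groups of female ventricles in 1 fit only Tagln was. With libraries 1 to 48 only, Smtn was at 0.51 and not called. Without library 35 or 36 of the naive females Smtn was lost, and without library 36 Acta2 was called at 0.65. Tagln and Myh11 stayed called with each library left out.

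Of 15 partners, 14 were tested; Tpm2 (0.93 ± 0.21) and Des (0.65 ± 0.13) were higher, and Ppp1r12b, a myosin phosphatase subunit, and Pln were lower at -0.51 ± 0.14 and -0.56 ± 0.16. These 4 of 14 stand beside the 23.7% of all genes called in this comparison. Of the regulators, Srf (0.63 ± 0.15) and the SRF co-activator Mrtfa (0.68 ± 0.22) were higher and Mrtfb was lower at -0.56 ± 0.13. Of 7 pericyte genes Pdgfrb was higher (0.46 ± 0.16) and Rgs5 lower (-1.31 ± 0.26), and of 6 wall genes elastin was higher (1.29 ± 0.30). Cardiomyocyte genes moved as well: Actc1, the cardiac actin, was at 1.14 ± 0.20 and Tnni3, cardiac troponin I, at 1.23 ± 0.21, and Ryr2 at -0.45 ± 0.14. The part of these genes in the result was not tested.

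In males exposed to the high dose no member was called in ventricles (0% of genes were), although the median log2 fold change over the 7 genes was 2.48, beside 0.07 over all genes. Without library 65 that median was -0.14, with Myh11 at -0.71 and Smtn at 0.96. The highest values were those of library 65: Myh11 was 22.2, 37.9 and 1013 CPM against 27.6, 40.1 and 91.2 CPM in naive males, and Tagln 32.0, 31.2 and 737 CPM against 14.9, 23.8 and 75.2 CPM. Both groups hold a library discordant in sex and in Myl4, the highest one in each. Smtn was 183, 185 and 335 CPM against 61.9, 128 and 111 CPM, at 1.21 ± 0.35, with no overlap and an adjusted p of 0.525 by edgeR. With an unadjusted p under 0.05, 3 of 7 members (Acta2, Smtn and Myocd) passed in high-dose males, beside 9.19% of all genes, and 3 of 7 (Tagln, Myh11 and Smtn) in high-dose females, beside 36.5%. Without the discordant libraries 65 and 53, which leaves 2 males in each group, Acta2 was called at 1.29 and Myocd at -1.82, with 213 and 147 CPM Acta2 against 56.1 and 95.9 CPM. The 0% above is for the fit with all libraries and does not cover this smaller fit.

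With all libraries the low dose gave no call of a member in ventricles of either sex by edgeR (0% of genes in each). Smtn was 163, 114 and 141 CPM in low-dose females, 172, 208 and 208 CPM in low-dose males, 120, 113 and 108 CPM in naive females and 61.9, 128 and 111 CPM in naive males. Only the males were clear of the naive libraries of their sex. In females 3 of 7 had an unadjusted p under 0.05 (Tagln, Smtn and Myocd), beside 17.8% of genes, and 2 of 7 in males (Smtn and Myocd), beside 13.9%. DESeq2 called Smtn in low-dose males and no member in low-dose females. Without the discordant libraries 53 and 71, edgeR called Acta2 at 1.37 and Myocd at -1.68 in low-dose males. The 0% above covers neither that smaller fit nor the DESeq2 fits.

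With both sexes in 1 fit of 12 libraries, Smtn was the only member called in ventricles, and at both doses. It had a median of 176 CPM (134 to 335) in 6 high-dose libraries, 167 CPM (114 to 208) in 6 low-dose libraries and 112 CPM (61.9 to 128) in 6 naive libraries. The log2 fold change, as the mean of the female and the male effect, was 0.88 ± 0.18 at the high dose (edgeR adjusted p = 0.0159; 11.9% of genes were called) and 0.76 ± 0.18 at the low dose (edgeR adjusted p = 0.0262; 10.1%). The high-dose libraries lay clear of the naive ones and the low-dose ones did not. These comparisons share the naive libraries. Without library 66 or 35 Smtn was lost at the high dose, and it was lost at the low dose without any 1 of 7 libraries. Without the libraries discordant in Myl4 it was 0.65 at the low dose and not called (edgeR adjusted p = 0.118). With libraries 1 to 48 only it was 0.68 at the low dose and not called, while Myocd was, at -1.35.

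Of the other genes, 5 were above naive on average and Myocd was below, and none was called. The both-sex fold change at the high dose was 1.88 for Tagln, 1.77 for Myh11, 1.56 for Cnn1, 1.43 for Lmod1 and 1.39 for Acta2, with standard errors of 0.57 to 0.86, and at the low dose 1.24, 0.96, 0.77, 0.71 and 0.78. The high-dose values rested on library 65, without which the median over the 7 members fell from 1.43 to 0.09, and at the low dose it went from 0.77 to 0.25 without library 71. For Myocd the fold change was -0.61 at the high dose and -0.90 at the low dose. At an unadjusted p under 0.05, 5 of 7 members passed at the high dose, beside 28.6% of genes, and 4 of 7 at the low dose, beside 27.5%. Without the sex-discordant libraries, Tagln (0.86), Acta2 (0.77), Smtn (0.75) and Myocd (-0.99) were called at the high dose, and Tagln (0.94), Acta2 (0.84), Smtn (0.71) and Myocd (-1.23) at the low dose. Tagln and Acta2 were thus called at a smaller fold change at the high dose, whereas at the low dose that of Tagln was smaller and that of Acta2 larger than with all libraries. Without the sex-discordant libraries more of all genes were called at either dose as well, as given in the last section.

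In Ahr-null ventricles no member was called in females (0.0216% of genes, 3 of 13920), in males (0%) or in both sexes together (0.0271%). Myh11 had a median of 31.0 CPM (23.9 to 46.1) in 6 Ahr-null libraries against 39.4 CPM (27.6 to 91.2) in naive ones, and Acta2 96.4 CPM (73.8 to 126) against 116 CPM (56.1 to 260). The ranges overlapped. At an unadjusted p under 0.05 none of the 7 passed in females (9.45% of genes), 1 in males (4.23%), which was Myocd, and 2 in both (12.1%), Cnn1 at -1.20 ± 0.53 and Myocd at -0.67 ± 0.17. DESeq2 called none. Lmod1 in Ahr-null females lay below the naive females without overlap (3.40 to 3.54 CPM against 4.15 to 4.41 CPM) at only -0.22 ± 0.26. Without the discordant libraries 53 and 59, Myocd was called in males at -1.25 and in both sexes at -0.81. The shares above are for the fits with all libraries.

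**Figure D4:**
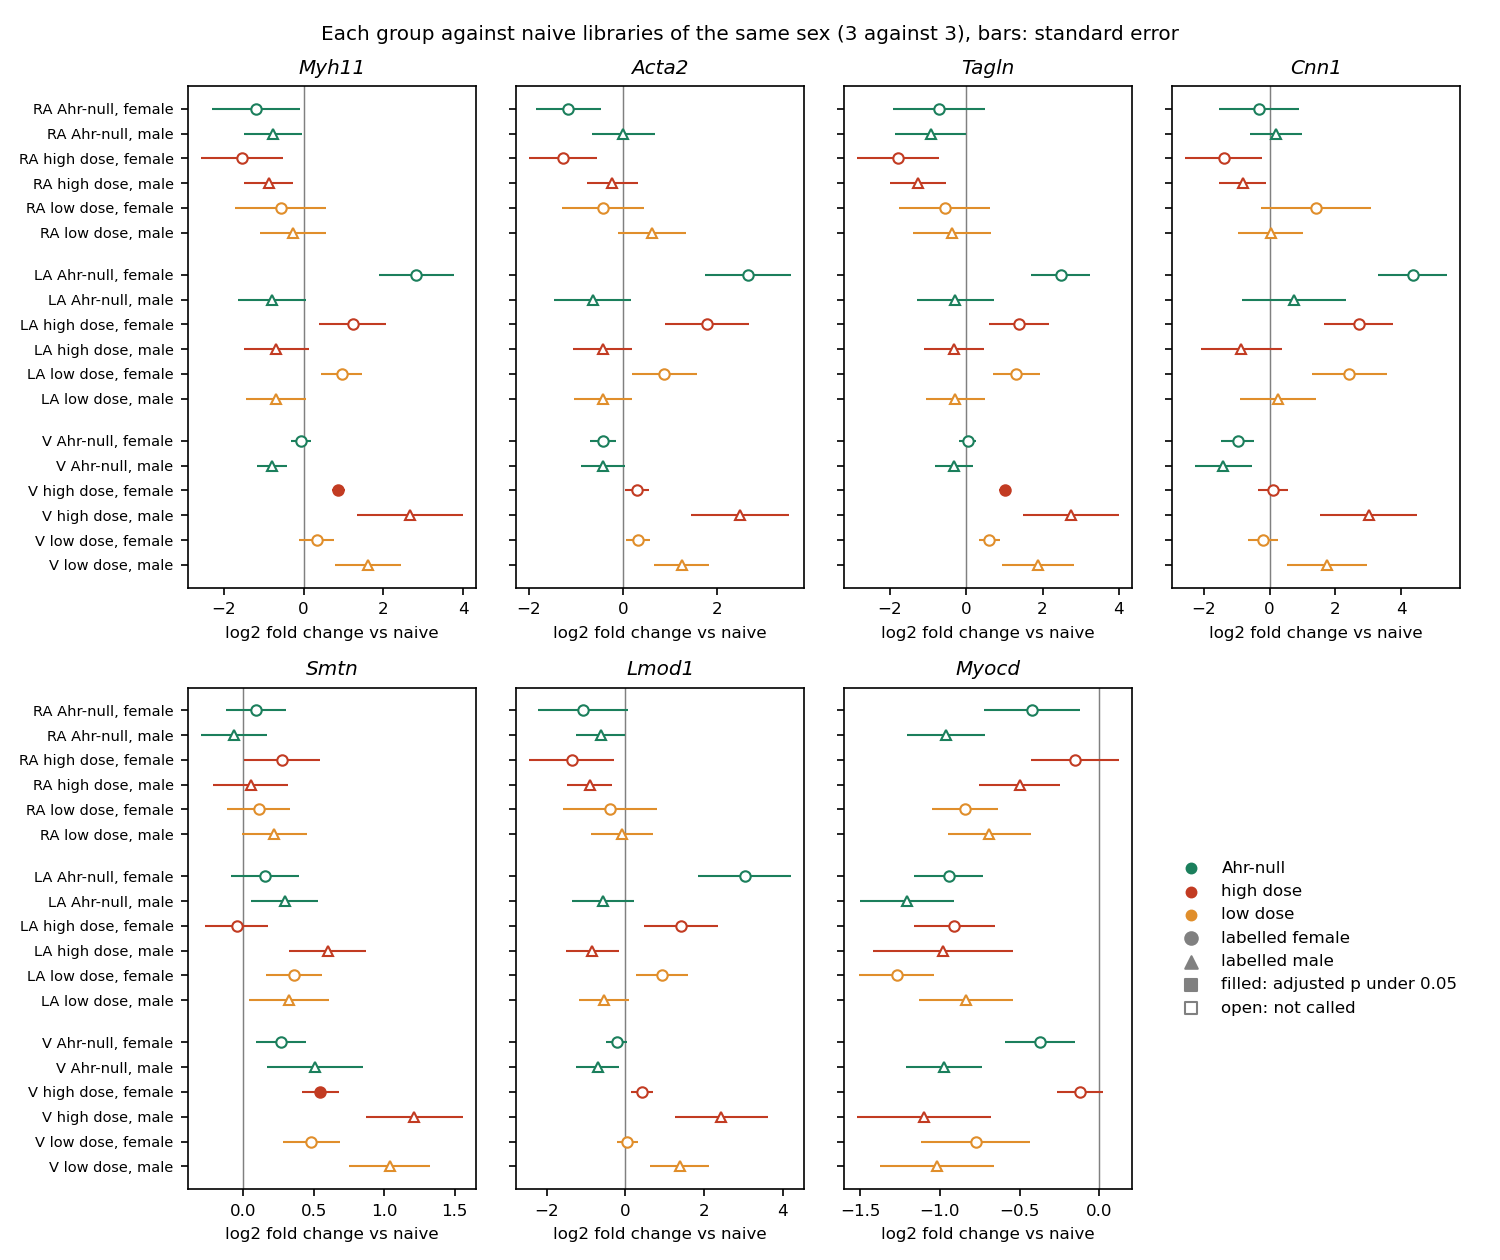
Log2 fold change of each of the 7 genes against naive libraries of the same labelled sex and compartment, with its standard error (3 libraries against 3). Filled symbols were called; these are Myh11, Tagln and Smtn in ventricles of high-dose females, and the longest bar is that of Cnn1 in right atrium of low-dose females, a standard error of 1.68.

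With all libraries no member was called in left atrium by edgeR. The largest differences were in Ahr-null females, where Cnn1 was 77.7, 35.8 and 14.3 CPM against 1.81, 0.404 and 4.21 CPM in naive females (4.36 ± 1.05, adjusted p = 0.359) and Myh11 was 526, 283 and 65.5 CPM against 54.8, 14.8 and 59.9 CPM (2.83 ± 0.93, adjusted p = 0.359). Acta2 was 1334, 613 and 306 CPM against 101, 32.5 and 232 CPM (2.66 ± 0.91). The Ahr-null values of these 3 genes, and of Tagln, lay above the naive ones without overlap, and those of Myocd below. Of the 7 members 6 had an unadjusted p under 0.05, beside 13.7% of genes and 0% at the adjusted threshold. Those shares are of genes passing a threshold, not of genes separated without overlap. Libraries 23 and 24, the 2 highest, had Myl4 at 48.7 and 5.09 CPM, against a left atrial median of 2045 CPM, and library 20 was the lowest of all libraries for these genes. DESeq2 called Cnn1 and Myocd there. Without libraries 23 and 24, 1 Ahr-null library was left, assumed to vary like the naive ones; Myh11 was then at 0.62 and Cnn1 at 2.73, and no member was called. With libraries 1 to 48 only, Cnn1 (5.86), Acta2 (4.03) and Myocd (-1.16) were called, and without library 58 Myocd was (-1.18). These calls are not set beside the share of all genes in those fits.

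The values of the males overlapped. In Ahr-null left atrium Myh11 was 139, 58.9 and 26.4 CPM against 300, 54.0 and 33.6 CPM in naive males (-0.79 ± 0.86), and Cnn1 58.4, 5.10 and 1.33 CPM against 35.3, 3.70 and 0.604 CPM (0.73 ± 1.58). The 139 CPM Myh11 and 58.4 CPM Cnn1 were those of library 21, which also held 736 CPM Scgb1a1; its part in them was not tested. The median over the 7 members was -0.58 in these males and 0.54 without library 17, which held the 300 CPM. Only Myocd had an unadjusted p under 0.05 in males (3.52% of genes did). The male effect minus the female effect was -3.58 for Myh11 and -3.26 for Acta2, with unadjusted p of 0.0274 and 0.0349 by edgeR and adjusted p of 0.996 for both, so a difference between the sexes was not called. None was called either with each of the 12 libraries left out in turn, library 17 among them.

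For the high dose in left atrium, Cnn1 was 35.0, 4.85 and 5.17 CPM in females, above the naive females (2.71 ± 1.04, adjusted p = 0.592), and 9.15, 8.04 and 2.76 CPM in males, within the naive range. At the low dose it was 26.4, 1.81 and 5.73 CPM in females and 28.3, 13.7 and 4.19 CPM in males, both overlapping with naive. Smtn was 205, 174 and 206 CPM in high-dose males and 170, 164 and 153 CPM in low-dose males, above 130, 133 and 142 CPM in naive males, at 0.60 ± 0.27 and 0.32 ± 0.28, neither called. The unadjusted threshold of 0.05 was passed by 2 of 7 in high-dose females (8.42% of genes), 0 in high-dose males (11.4%), 1 in low-dose females (17.6%) and 1 in low-dose males (1.60%). In both sexes together 1 of 7 passed in each group, always Myocd, beside 15.2% of genes in Ahr-null, 17.5% in high-dose and 13.4% in low-dose libraries; at the adjusted threshold 0.0130% of genes were called in Ahr-null left atrium and 0% at either dose.

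In right atrium no member was called by edgeR in any comparison. Myh11 had a median of 45.1 CPM (26.2 to 372) in naive, 64.2 CPM (33.4 to 124) in Ahr-null, 47.0 CPM (32.3 to 74.8) in high-dose and 47.9 CPM (36.4 to 238) in low-dose libraries. The groups overlapped throughout, and the 2 highest naive values, 372 and 222 CPM, were those of libraries 50 and 1. At the high dose the fold change was -1.53 ± 1.03 in females and -0.88 ± 0.62 in males for Myh11, and -1.78 ± 1.08 and -1.26 ± 0.73 for Tagln. The direction of the members' median rested on libraries 50 and 1. The median over the 7 members was -1.36 in high-dose females and 0.58 without library 50, and -0.81 in high-dose males and 0.07 without library 1. Each labelled female right atrial group held a library discordant in sex (50 in naive, 56 in Ahr-null, 62 in high-dose and 68 in low-dose). Cnn1 had medians of 7.47 CPM (1.10 to 39.2) in naive, 8.72 CPM (7.39 to 26.9) in Ahr-null, 4.77 CPM (1.84 to 12.6) in high-dose and 6.20 CPM (1.71 to 131) in low-dose libraries. Smtn was 162 CPM (134 to 211) in naive libraries and 174, 171 and 184 CPM in the 3 other groups.

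At an unadjusted p under 0.05 the right atrial count of members was 0 in Ahr-null females (5.51% of genes), 1 in Ahr-null males (5.12%), 0 in high-dose females (3.91%), 0 in high-dose males (5.41%), 1 in low-dose females (4.27%) and 1 in low-dose males (4.41%). Those single members were Myocd each time. With both sexes the count was 1 in Ahr-null (8.38%), 0 in high-dose (7.13%) and 1 in low-dose libraries (9.06%), again Myocd; the adjusted threshold was passed by 0.0525% of genes in high-dose and by 0% in the other groups. DESeq2 called Myocd in low-dose right atrium with both sexes, a fit for which the share of all genes called is not given.

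Myocd, which encodes the activator of the program, was lower than in naive libraries in the comparisons above where it had an unadjusted p under 0.05. With all libraries, TMM and no further term, edgeR called it in none of them. In left atrium Myocd had a median of 80.1 CPM (44.4 to 97.0) in 6 naive libraries, 35.4 CPM (22.9 to 54.2) in Ahr-null, 38.2 CPM (21.8 to 58.9) in high-dose and 34.7 CPM (21.2 to 62.1) in low-dose libraries. Only the naive library 51, at 44.4 CPM and discordant in Myl4, reached into the range of the other groups. The both-sex fold change was -1.09 ± 0.19, -0.96 ± 0.28 and -1.06 ± 0.19, with adjusted p of 0.268, 0.137 and 0.214 by edgeR. DESeq2 called all 3. Without the libraries discordant in Myl4, edgeR called Myocd in high-dose left atrium at -1.40, and without library 63 at -1.31. The shares of all genes called in the DESeq2 fits and in these smaller fits are not set beside these calls.

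In right atrium Myocd had a median of 64.9 CPM (48.8 to 103) in naive, 40.1 CPM (34.7 to 68.7) in Ahr-null, 53.9 CPM (34.6 to 64.2) in high-dose and 36.6 CPM (29.4 to 59.3) in low-dose libraries, with both-sex fold changes of -0.69 ± 0.20, -0.33 ± 0.20 and -0.78 ± 0.18. In ventricles the medians were 64.5 CPM (53.6 to 84.7), 41.0 CPM (28.7 to 56.2), 47.4 CPM (18.4 to 62.8) and 32.3 CPM (15.6 to 52.5), with fold changes of -0.67 ± 0.17, -0.61 ± 0.23 and -0.90 ± 0.28. All 6 low-dose ventricular libraries lay below all 6 naive ones, with an adjusted p of 0.0558 by edgeR. Myocd was called there when scaled to library totals (-1.02, edgeR adjusted p = 0.0244) or with a term for library series (-0.99, edgeR adjusted p = 0.0302). The share of all genes called in those fits is not set beside these calls. The ventricular high-dose effect was -0.12 ± 0.15 in females and -1.10 ± 0.42 in males; in males the values were 18.4, 28.0 and 62.8 CPM, the last in library 65, against 82.1, 84.7 and 58.5 CPM in naive males, the last in library 53. All these comparisons share their naive libraries within a compartment and sex, so they are not independent of each other.

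Across the sexes and with all libraries, none of the 9 interactions between sex and group called a member or any gene (0% in each), and DESeq2 called no member. At an unadjusted p under 0.05, 3 of 7 members passed for Ahr-null left atrium, beside 3.31% of genes, and 0 in the other 8, where 4.53%, 1.77% and 1.19% of genes passed in right atrium (Ahr-null, high and low dose), 2.79% and 0.926% in left atrium (high and low dose) and 2.74%, 4.53% and 0.929% in ventricles. Without library 65 the male minus female effect of Myocd at the high dose in ventricles was called, at -1.49, where the female effect was near 0. That Myocd effect was also called without the sex-discordant libraries (-1.66, edgeR adjusted p = 0.00217) and with libraries 1 to 48 only (-1.82, edgeR adjusted p = 0.0115). The 0% above does not cover these fits. Each labelled male ventricular and female right atrial group holds a library discordant in sex. Interactions there with all libraries thus compare mixed sexes.

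Within groups the 7 genes did not move as 1 unit. After the mean of each of the 24 groups was subtracted, the deviations of Myh11, Acta2, Tagln, Cnn1 and Lmod1 over the 72 libraries were correlated with each other at Pearson r of 0.81 to 0.96, the highest for Myh11 with Tagln. Smtn was correlated with these 5 at 0.35 to 0.44, and Myocd at 0.04 to 0.18. Leaving out the 6 libraries that stand apart, the ranges were 0.73 to 0.93, 0.27 to 0.38 and -0.10 to 0.05. The points share library depth and composition, and the values are given as a description. Where Myh11 was high in a library, Tagln, Acta2, Cnn1 and Lmod1 were thus high as well, with little relation for Myocd.

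**Figure D5:**
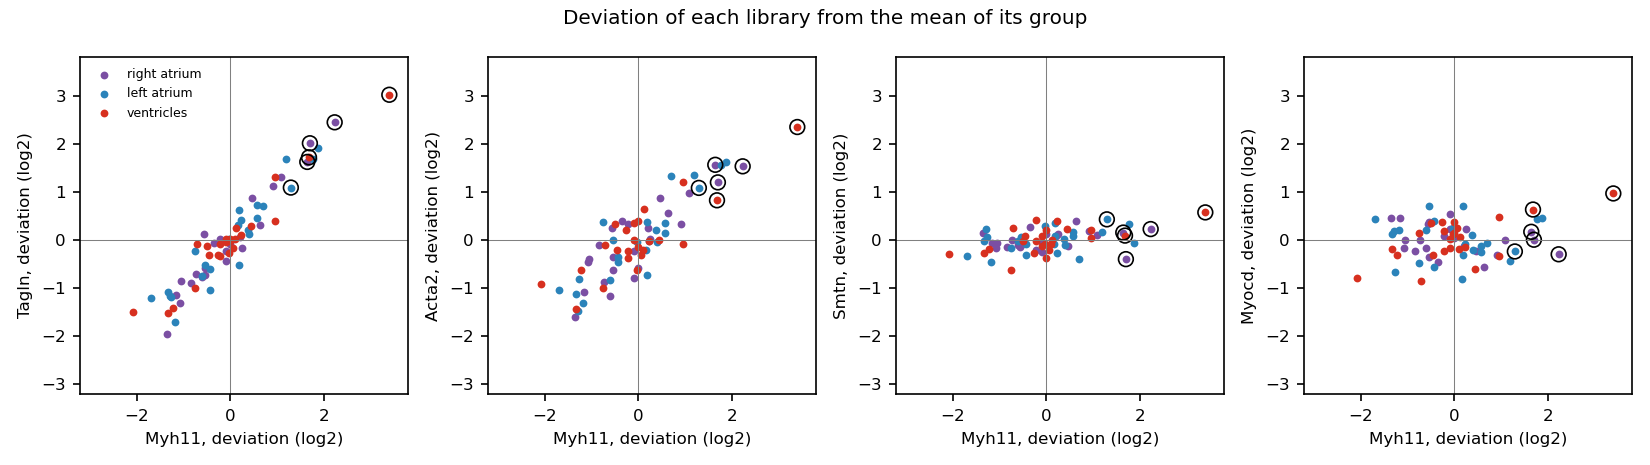
Deviation of Tagln, Acta2, Smtn and Myocd from their group mean (log2 of CPM + 0.5) against that of Myh11 in 72 libraries, coloured by compartment, with rings on the 6 libraries that stand apart in the smooth muscle score. Tagln follows Myh11 closely (r = 0.96), Smtn in part (r = 0.43) and Myocd hardly (r = 0.18).

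The genes whose deviations were most like the mean of the 7 members, among 13951 genes with a mean of at least 1 CPM, were Tagln (r = 0.975), Lmod1 (0.963), Myh11 (0.955) and Acta2 (0.941). Each member enters that mean itself, so the values and places of members are in part fixed by this. The 10 non-members closest to them were Flna (filamin A, an actin crosslinker, 0.941), Actn1 (alpha-actinin 1, 0.933), Npnt (nephronectin, a matrix ligand, 0.933), Itga8 (the integrin chain that binds nephronectin, 0.923), Mylk (myosin light chain kinase, 0.909), E030013I19Rik (0.885), Scube3 (0.878), Actg2 (smooth muscle gamma actin, 0.871), Susd5 (0.869) and Ccn3 (0.865). Leaving out the libraries that stand apart, these 10 lay between 0.806 and 0.908. Itga8 ran from 2.21 to 340 CPM and Actg2 from 0 to 40.2 CPM over the 72 libraries, ranges as wide as those of the members. Cnn1 was at 0.934, whereas Smtn (0.467) was 1126th and Myocd (0.189) 5780th of all genes, although they enter the mean as well.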

How the data were processed

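RNA of right atrium, left atrium and ventricles was sequenced as 50-base single reads. The authors aligned reads with TopHat to mm10 and deposited raw read counts per gene over coding regions, with tools CASAVA 1.8, bcl2fastq and DESeq in their processing notes. Library totals ran from 11873417 to 28789382. All 72 columns were matched to samples by library number and title. Genes were named through Entrez identifiers, of which 24155 of 24237 matched; the others held 3.91% of counts. CPM scale each count by its library total. Comparisons used edgeR 4.0.16 in R 4.3.3 (quasi-likelihood test, genes kept by filterByExpr at a minimum count of 10 and total of 15, TMM, robust), with Benjamini-Hochberg adjustment at 0.05, first within each sex as in the study and then over both. DESeq2 1.42.0 was an alternative. SE is the fold change divided by the square root of F. Scripts were tested on simulated data. Named genes are the 7 members, called genes of the lists, and the 10 genes most like the members. Members, lists and tests were chosen with earlier results of these data known. Alternatives were another normalization, no filter, the 4 groups in 1 fit, a term for library series, a stricter threshold and libraries left out. The limit of 3 counts covers counting error only. RefSeq promoters are of build GRCm38.p6.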

Additional observations from a re-analysis of the deposited data

Results flagged for a closer look

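In 30 of 84 sets of 6 libraries (7 genes, 3 compartments and 4 groups), the highest or lowest library lay far from the other 5 by Dixon's test (the gap to the nearest library over the range of all 6, at the 95% critical value). Chance gives about 1 in 20 sets, but the genes share their libraries, so the sets are not independent. The library was the highest in 28 sets and the lowest in 2.

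Among ventricles, library 65 (high dose) was far above in 6 genes, with 1013 CPM Myh11, 2029 CPM Acta2, 737.1 CPM Tagln, 87.88 CPM Cnn1, 334.7 CPM Smtn and 85.04 CPM Lmod1. Library 71 (low dose) was far above in 5 genes, with 322.0 CPM Myh11, 474.6 CPM Acta2, 273.4 CPM Tagln, 25.4 CPM Cnn1 and 26.64 CPM Lmod1. Library 53 (naive) was far above in 4 genes, with 91.23 CPM Myh11, 75.17 CPM Tagln, 8.559 CPM Cnn1 and 9.463 CPM Lmod1. These 3 ventricular libraries are labelled male and carry the transcripts of females and of atria described above. Library 33 (naive) was far below in Smtn, at 61.94 CPM, and library 38 (Ahr-null) in Lmod1, at 1.437 CPM.

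Among left atria, library 17 (naive) was far above in 5 genes, with 300.4 CPM Myh11, 705.6 CPM Acta2, 225.1 CPM Tagln, 35.32 CPM Cnn1 and 25.75 CPM Lmod1. Library 27 (high dose) was far above in 4 genes, with 237.7 CPM Myh11, 954.9 CPM Acta2, 35.01 CPM Cnn1 and 28.22 CPM Lmod1, and library 31 (low dose) in Smtn, at 244.5 CPM. Among right atria, library 50 (naive) was far above in Acta2, at 1041 CPM, library 15 (low dose) in Cnn1, at 130.6 CPM, and library 11 (high dose) in Lmod1, at 8.684 CPM. Library 11 is labelled right atrium and had 16.8 CPM Myl4.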

How the results depend on the processing

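Across alternatives other than leaving out 1 library, the number of members called stayed within 1.5 times its value 319 times and moved 54 times, and no called value changed sign. Most comparisons called no member with all libraries, so an unmoved count often means that none was called either way. By DESeq2, 2 members were called in Ahr-null female left atrium and in low-dose ventricles of both sexes, and 1 each in low-dose right atrium, Ahr-null, high-dose and low-dose left atrium of both sexes, low-dose female left atrium and low-dose male ventricles. With libraries 1 to 48 only, counts were 3 in Ahr-null female left atrium, 1 in Ahr-null and high-dose left atrium, 1 in Ahr-null ventricles of males and of both sexes, 2 in high-dose and low-dose male ventricles, 4 in high-dose ventricles, 1 in the interaction there, and 5 and 2 for left and right atrium against ventricles. Without libraries discordant in Myl4 they were 1 in high-dose left atrium, Ahr-null ventricles of males and of both sexes, low-dose male ventricles and the high-dose interaction, 2 and 4 in high-dose ventricles of males and of both sexes, 0 in low-dose ventricles, and 4 and 5 for the atria. Without libraries standing apart, a set chosen by the tested members' own levels, counts were 2 in high-dose and low-dose ventricles. They were 1 in the interaction and 5 for left atrium, and no conclusion is drawn from them. Without libraries discordant in sex (added after seeing the data) they were 1 in Ahr-null ventricles of males and of both sexes and in the interaction, 2 in high-dose and low-dose male ventricles, 4 at either dose in both sexes, and 5 and 3 for the atria. Scaled to library totals, which moved the median of all genes by over 0.1 in some comparisons (by 0.15 and 0.20 for left and right atrium, -0.17 in high-dose female and -0.11 in low-dose ventricles), they were 2 in low-dose ventricles and for each atrium, with a term for library series 2 in low-dose ventricles, with 4 groups in 1 fit 1 in high-dose female ventricles, with naive libraries 0 for each atrium, and at an adjusted p of 0.0001 they were 0 throughout. The cause of these differences was not tested. Numbers of all genes called are given below for some of these fits only, so the other member counts stand without a background share.

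With 1 library left out, counts ran from 0 to 2 in high-dose ventricles (without library 65, 2), 0 to 4 in low-dose ventricles (without library 53, 4), 0 to 1 in high-dose left atrium, Ahr-null female left atrium and the high-dose ventricular interaction, 1 to 4 for left atrium and 1 to 3 for right atrium against ventricles (both highest without library 65), and 2 to 3 in high-dose female ventricles. Of all genes, 3313 were called in high-dose female ventricles, against 719 with 4 groups in 1 fit and 1756 with libraries 1 to 48. In high-dose ventricles 1760 were called, against 4951 without the discordant libraries 53 and 65, 3821 without library 65, 3806 with libraries 1 to 48 and 2836 by DESeq2. In low-dose ventricles 1475 were called, against 17 without libraries 46, 53 and 71, 2575 without 53 and 71, and 2473 by DESeq2. For left atrium 3244 were called, against 6861 with libraries 1 to 48, 7491 without those discordant in Myl4, 6351 without those discordant in sex, 5330 without those standing apart and 0 with naive libraries; for right atrium 4998, against 7739, 7869, 7578 and, with naive libraries, 1. No paired analysis was possible because the labels number each library once, so groups share no replicate numbers. The study dissected each heart into right atrium, left atrium and ventricles. Standard errors and p-values between compartments treat such parts as independent. Genes near 3 counts (0.104 to 0.253 CPM) are limited by depth; among the members only Cnn1 came close.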
